A study of Rattus norvegicus with 4 samples.

Results

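The genes of mitosis and of the G2 phase that precedes it were followed across 4 libraries of rat neural stem/progenitor cells (NSPCs). Members were chosen by symbol from a list of 42 genes: 36 were among the 16881 gene symbols of the count tables, and all 36 passed the count minimum of 10 counts in at least 1 library, as did 10516 genes in all. The other 6 listed genes (Cenpe, Spc24, Anln, Ncapd2, Ncapg and Ncaph) were not analysed here. Wild-type cells were cultured on bare PUCL, or on PUCL@CNT1, a nanohybrid scaffold that the series title calls electroconductive. On each platform 1 library came from cells kept 24 h under stemness-maintaining conditions (DMEM/F12 knockout base plus StemPro Neural Supplement), below the maintenance medium. The other came from cells moved on to neuronal B-27 Plus medium for a further 1.5 d, below the differentiation medium. Medium and time in culture therefore changed together. The strain and age of the rats, and the number of cultures behind a library, were not given in the sources used here. With 1 library per group there was no replicate check, so each pair below compares 2 libraries and not 2 conditions.

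A dividing cell enters mitosis when cyclin B bound to Cdk1 is switched on, packs its chromosomes with condensins and topoisomerase, and attaches them to spindle microtubules through kinetochores. A checkpoint holds the cell until all chromosomes are attached. The anaphase-promoting complex (APC/C) then marks securin and cyclin B for destruction, the sister chromatids part, and the midzone of the spindle guides the cleavage furrow. Transcripts of these genes accumulate late in the cell cycle, and in neural tissue they mark cycling progenitors, since postmitotic neurons leave the cycle. Many of their promoters carry a cell cycle homology region (CHR) and CCAAT boxes. The DREAM complex represses such promoters in resting cells, and B-Myb and FoxM1 activate them in G2.

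Members were chosen by symbol and not by promoter sequence. As many promoters of such genes are already known to carry these letters, a high share here is a description and no independent result. In RefSeq's promoter windows for the GRCr8 assembly (250 bases before to 50 after the start, 1 window per symbol), 30 of the 36 members had an entry. The letters TTTGAA or TTCGAA, the core of a CHR, were searched on both strands, as was CCAAT, which reads ATTGG on the other strand. At least 1 TTTGAA or TTCGAA stood in 27 of the 30 member windows (90%), against 19.5% of the 27457 windows of all symbols and 12.9% of the 8026 windows of genes tested here. CCAAT stood in 24 member windows (80%), against 37.7% of all windows and 37.8% of those of genes tested. Of the member windows, 19 (63.3%) held 2 or more, against 11.5% and 14%. Both sets of letters occurred together in 23 (76.7%), against 7.83% and 5.49%. The windows of Ccnb1, Aurka and Bub1 held no CHR letters. A match is a description of the letters and not a site of binding.

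Windows of 4 members are printed because their transcripts had 4 different patterns: Mki67 was lowest in 1 library, Plk1 was lower in both PUCL@CNT1 libraries, and both differentiation libraries were lower for Nuf2 and higher for Pttg1. Capitals mark the CHR letters and CCAAT on either strand. The windows are chr1:199952544-199952843 on the minus strand for Mki67, chr1:186147408-186147707 on the plus strand for Plk1, chr13:84255549-84255848 on the minus strand for Nuf2 and chr10:28406277-28406576 on the minus strand for Pttg1, all in GRCr8 and written 5′ to 3′ along the gene.
Mki67: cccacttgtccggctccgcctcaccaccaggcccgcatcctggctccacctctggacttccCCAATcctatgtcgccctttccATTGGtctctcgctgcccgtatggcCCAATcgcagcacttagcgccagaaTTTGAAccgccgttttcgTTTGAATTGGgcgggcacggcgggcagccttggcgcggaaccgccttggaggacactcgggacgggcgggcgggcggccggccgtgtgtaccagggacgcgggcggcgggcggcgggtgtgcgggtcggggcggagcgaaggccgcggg
Plk1: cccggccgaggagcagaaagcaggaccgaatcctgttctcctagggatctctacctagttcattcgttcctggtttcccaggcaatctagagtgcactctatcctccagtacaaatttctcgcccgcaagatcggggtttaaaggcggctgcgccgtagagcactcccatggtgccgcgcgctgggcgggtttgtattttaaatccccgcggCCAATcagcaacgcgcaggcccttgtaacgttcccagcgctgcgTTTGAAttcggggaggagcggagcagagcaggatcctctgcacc
Nuf2: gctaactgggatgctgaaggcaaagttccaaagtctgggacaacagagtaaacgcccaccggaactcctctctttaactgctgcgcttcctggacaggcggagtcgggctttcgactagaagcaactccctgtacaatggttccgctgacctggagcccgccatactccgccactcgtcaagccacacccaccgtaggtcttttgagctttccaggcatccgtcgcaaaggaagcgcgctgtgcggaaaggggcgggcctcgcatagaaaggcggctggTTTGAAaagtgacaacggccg
Pttg1: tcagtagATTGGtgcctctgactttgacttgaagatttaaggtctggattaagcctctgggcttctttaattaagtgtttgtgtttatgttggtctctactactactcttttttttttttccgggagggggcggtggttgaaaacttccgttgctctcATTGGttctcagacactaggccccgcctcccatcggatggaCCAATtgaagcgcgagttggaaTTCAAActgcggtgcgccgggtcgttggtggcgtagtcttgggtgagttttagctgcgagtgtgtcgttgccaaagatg
The Mki67 window held 2 CHR matches, beginning 117 and 99 bases before the start, and 4 CCAAT matches, 1 of which overlapped a CHR match. Plk1 had 1 CHR match just after its start and 1 CCAAT 38 bases before it. Nuf2 had a single CHR match, 29 bases after the start, and no CCAAT. Pttg1 had a CHR match on the opposite strand, 29 bases before the start, and 3 CCAAT matches.

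The libraries held 6035848 to 6855984 counts each, and 9584 to 9842 symbols had a count. Ribosomal RNA entries took 9.03% and 8.46% of counts on PUCL@CNT1, against 11.3% and 13.4% on PUCL. This share moved with the platform, and its part in the results was not tested. Levels below are CPM (counts per 1000000 scaled counts), with library sizes adjusted by TMM, a trimmed mean of log ratios between libraries, always in the order PUCL then PUCL@CNT1 in maintenance medium, PUCL then PUCL@CNT1 in differentiation medium. Among markers of the labelled cell type, 12 of 13 were analysed, and they summed to 6989, 7262, 8895 and 11109 CPM. Vim was the most abundant of them, at 4314, 4795, 4814 and 7634 CPM, and weighed heavily in the sum. Of the 10 markers past the count minimum, 5 were lower on PUCL@CNT1 in differentiation medium and the other 5 higher. Sox2 (975 against 583 CPM) and Slc1a3 (639 against 312 CPM) were among the lower. Msi1 was at 0 in all 4 libraries. Markers of neurons summed to 501, 413, 292 and 240 CPM (Syp and Nefl at 0), of astrocytes to 520, 502, 993 and 481 CPM (Slc1a2 at 0) and of the oligodendrocyte lineage to 936, 838, 1541 and 1546 CPM. Mural cell and fibroblast markers summed to 1329, 928, 644 and 566 CPM, with Acta2 the most abundant and Rgs5, Dcn and Lum at 0. Endothelial and microglial markers did not exceed 29.5 and 7.27 CPM, and the defining genes Pecam1, Cdh5, Aif1 and Csf1r were at 0. The part of these other cell types in the results below was not tested.

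The 36 members together made up 7873, 7103, 7940 and 6094 CPM. The PUCL@CNT1 library in differentiation medium was the lowest. The summed log2 ratio of differentiation to maintenance medium was 0.01 on PUCL (95% interval -0.01 to 0.03) and -0.22 on PUCL@CNT1 (-0.24 to -0.20). Without 6 members picked by hand as also used outside mitosis (Bub3, Cks1b, Smc2, Smc4, Incenp and Cdc25b) the latter was -0.12. In that pair Bub3 went from 674 to 466 CPM, Smc4 from 354 to 196 CPM and Smc2 from 219 to 106 CPM. Incenp went from 87.1 to 24.7 CPM, Cks1b from 180 to 161 CPM and Cdc25b from 0 to 2.71 CPM. The fall in the sum thus depends on the pick, and mostly on its abundant genes. The summed log2 ratio of PUCL@CNT1 to PUCL was -0.15 in maintenance medium (-0.17 to -0.13) and -0.38 in differentiation medium (-0.40 to -0.36). These exact binomial intervals compare 2 libraries without replicates, so they cover counting error only. They take each read as a separate molecule, since the reads carry no molecular identifiers. In bulk RNA, fewer dividing cells and less of each transcript per cell cannot be told apart.

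The median member, which gives each gene equal weight, was lower in the same library. The median log2 ratio of the medium was -0.02 on PUCL and -0.54 on PUCL@CNT1, where the medians of all genes tested were 0.03 and -0.02. The median log2 ratio of the platform was 0.04 in maintenance medium and -0.42 in differentiation medium, beside 0.03 and -0.03 for all genes. Of the 36 members, 22 (61.1%) were lowest in the PUCL@CNT1 differentiation library, beside 22.5% of all genes. In the platform comparison in differentiation medium 31 members (86.1%) had a log2 ratio below 0, beside 51.3% of all genes. The corresponding counts were 25 (69.4%, beside 50.9%) for the medium on PUCL@CNT1, 20 (55.6%, beside 48.2%) for the medium on PUCL and 17 (47.2%, beside 48%) for the platform in maintenance medium. Pairs that share a library are not independent of each other.

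**Figure D1:**
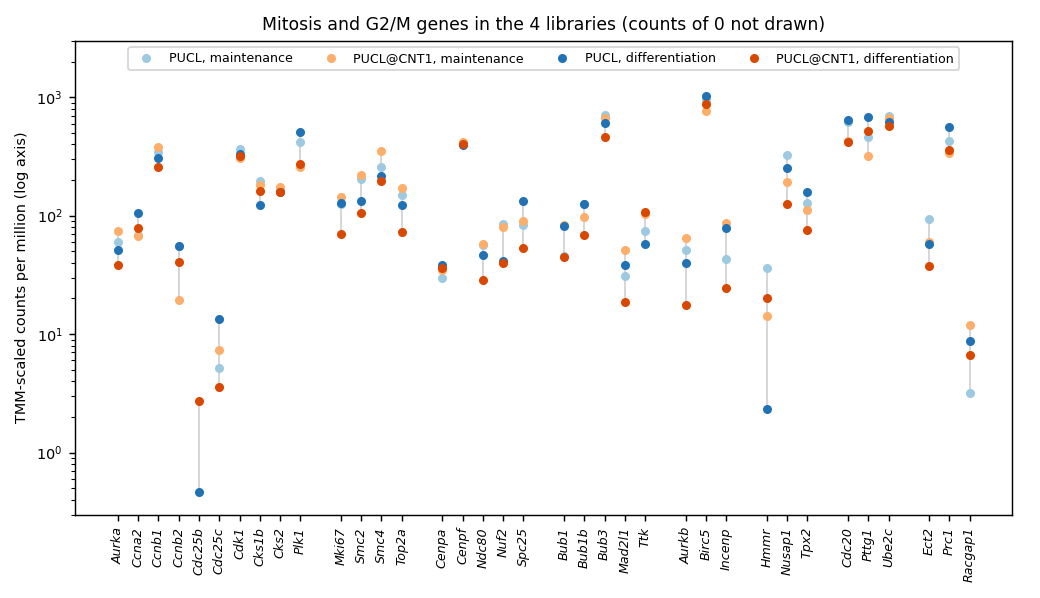
Level of each of the 36 members in the 4 libraries, in TMM-scaled CPM on a log axis, with members grouped by role; each point is 1 library, and the 2 counts of 0 of Cdc25b are not drawn. The PUCL@CNT1 differentiation library is the lowest point for 22 of the 36 members, and levels of different genes are not compared.

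For a pair of libraries a size rule was used, met where the scaled counts differed 2-fold or more and the 95% bound closer to no difference still exceeded 1.5-fold. Switching the medium on PUCL put 2 members past it upward (Cdc25c and Racgap1) and 2 downward (Nuf2 and Hmmr), or 5.56% each way, below the background of 16.1% and 15.3% of all genes. On PUCL@CNT1 the same switch put 2 members above (Ccnb2 and Cdc25b) and 7 below (Mki67, Top2a, Aurkb, Mad2l1, Ndc80, Incenp and Smc2). The 7 lower members were 19.4% of the list, beside 14.5% of all genes, and the 2 higher were 5.56%, beside 16.5%. Low counts pass such a rule more readily in either direction. Among genes with a mean of 100 or more counts the 7 lower members were 21.2% of 33, beside 9.51% of all such genes. On PUCL, 2 of the 33 (6.06%) were lower, beside 9.25% of such genes, and 0 were higher, beside 8.7%.

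Between platforms in maintenance medium 2 members were past the rule upward on PUCL@CNT1 (Incenp and Racgap1) and 2 downward (Ccnb2 and Hmmr), beside 12.2% and 13.9% of all genes. In differentiation medium 2 were higher on PUCL@CNT1 (Cdc25b and Hmmr) and 7 lower (Aurkb, Mad2l1, Cdc25c, Spc25, Incenp, Tpx2 and Nusap1), beside 15.2% and 15.6%. Among genes with a mean of 100 or more counts, 6 of 33 members (18.2%) were lower in differentiation medium, beside 8.69%. In maintenance medium 2 of the 33 (6.06%) were lower, beside 6.43% of such genes, and 1 (3.03%) was higher, beside 5.32%. Aurkb, Mad2l1 and Incenp were past the rule downward in both pairs that contain the PUCL@CNT1 differentiation library. As the pairs share that library, the 2 calls are not independent, and the share of all genes past the rule in both was not counted.

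**Figure D2:**
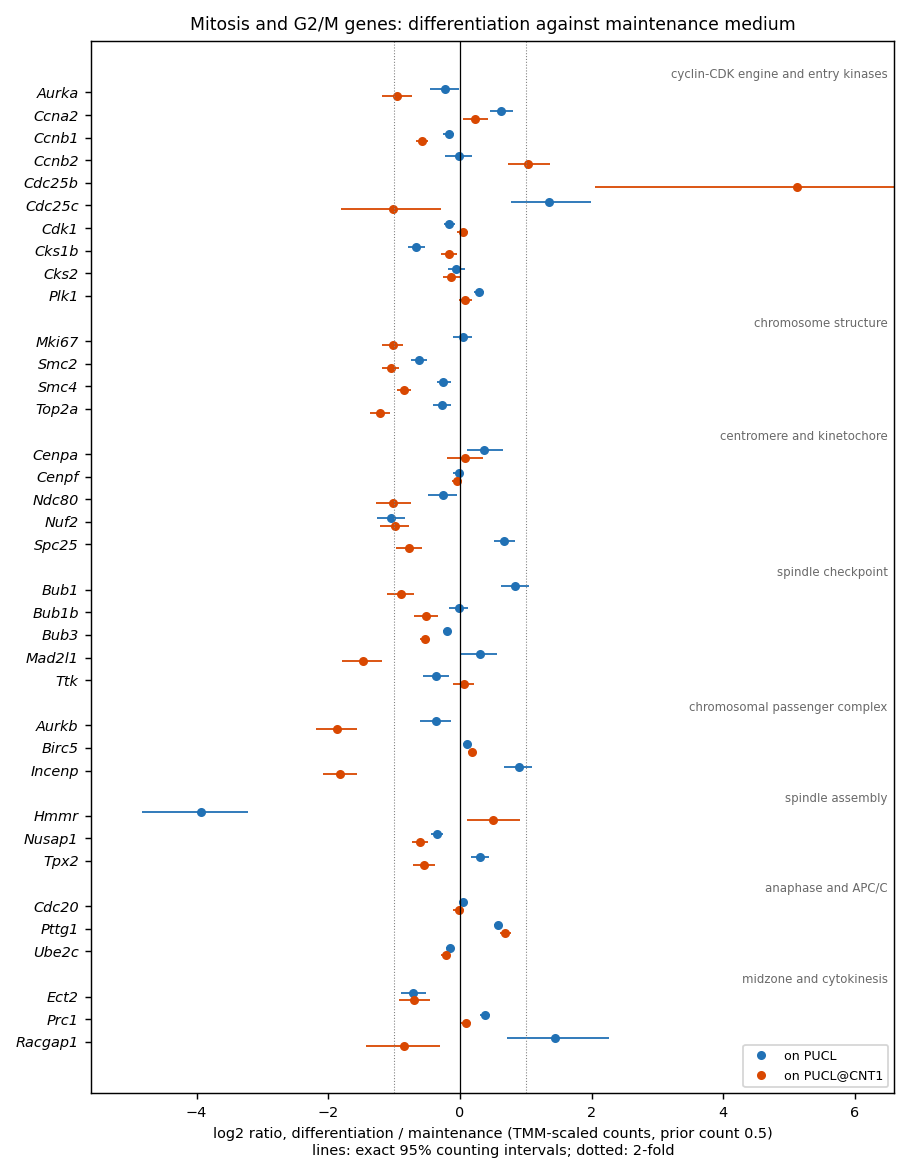
Log2 ratio of differentiation to maintenance medium for each member on PUCL and on PUCL@CNT1; points are the ratio of 2 libraries and bars its exact 95% interval (counting error only). On PUCL@CNT1, 25 of 36 members lie below 0 and 7 are past the size rule downward, while on PUCL 20 lie below 0 and 2 are past it; the interval of Cdc25b on PUCL@CNT1 runs off the axis, and no point is drawn for it on PUCL, where both counts were 3 or fewer.

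The 10 members of the cyclin-CDK engine and entry kinases had a median log2 ratio of -0.04 for the medium on either platform, and of 0.02 and -0.34 for the platform in maintenance and differentiation medium, where 8 of the 10 were below 0. Cdk1, the kinase that drives entry, stood at 367, 309, 329 and 318 CPM, with PUCL in maintenance medium highest and the other 3 close together. Plk1, the polo kinase that matures centrosomes and activates cyclin B-Cdk1, stood at 415, 257, 507 and 273 CPM. Both PUCL@CNT1 libraries lay below both PUCL libraries.

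Ccnb2, which encodes a cyclin B, stood at 56.0, 19.5, 55.2 and 40.3 CPM. The PUCL@CNT1 maintenance library stood apart below the other 3, with a log2 ratio to PUCL of -1.51 (95% interval -1.83 to -1.22). The other cyclin B gene, Ccnb1, added here beside it after its values were seen, did not share that pattern, at 347, 380, 307 and 257 CPM. Of the CDC25 phosphatases that remove the inhibitory phosphates from Cdk1, Cdc25c had 34, 46, 86 and 24 counts and Cdc25b 0, 0, 3 and 18 counts. Cdc25c was highest on PUCL and lowest on PUCL@CNT1 after the switch. Cdc25b was higher after the switch on PUCL@CNT1, 5.64-fold when 3 counts per library are taken as the floor for 0. The lower 95% bound of its log2 ratio in that pair was 2.05. The remaining members were Ccna2 (cyclin A), Aurka (a centrosomal kinase) and the CDK-binding proteins Cks1b and Cks2, whose log2 ratios over the 4 pairs ran from -0.95 for Aurka to 0.63 for Ccna2.

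Chromosome structure genes had the lowest role-group medium ratio by sum on PUCL@CNT1, and none of the 4 passed the rule on PUCL. Their sum was 736, 886, 602 and 446 CPM, a log2 ratio of -0.99 (-1.06 to -0.93) for the medium on PUCL@CNT1 and -0.29 (-0.35 to -0.23) on PUCL. Mki67, whose protein coats mitotic chromosomes and is the usual mark of cycling cells, stood at 125, 143, 128 and 70.7 CPM. The 3 other libraries were close and the PUCL@CNT1 differentiation library was lower, with log2 ratios of -1.02 (-1.18 to -0.86) to its own maintenance library and -0.86 (-1.03 to -0.70) to PUCL in the same medium.

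Top2a, the topoisomerase that untangles sister chromatids, stood at 149, 170, 123 and 73.0 CPM. Smc2, a core condensin subunit, stood at 205, 219, 133 and 106 CPM, and its partner Smc4 at 258, 354, 217 and 196 CPM. For all 3, both differentiation libraries lay below both maintenance libraries, and the medium log2 ratio was lower on PUCL@CNT1 (-1.22, -1.05 and -0.85) than on PUCL (-0.27, -0.62 and -0.25).

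Centromere and kinetochore members did not share 1 pattern, even within the NDC80 complex, which grips the microtubule end. Its subunit Ndc80 stood at 56.3, 57.8, 47.0 and 28.7 CPM, lowest on PUCL@CNT1 after the switch. Nuf2, the partner that pairs with Ndc80, stood at 85.8, 79.6, 41.6 and 40.0 CPM. Nuf2 was lower after the switch on both platforms and close between platforms: its medium log2 ratio was -1.04 (-1.26 to -0.83) on PUCL and -0.99 (-1.21 to -0.77) on PUCL@CNT1.

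Spc25, which joins that complex to the inner kinetochore, stood at 82.8, 90.9, 132 and 53.2 CPM, highest on PUCL and lowest on PUCL@CNT1 after the switch. Cenpf, a large kinetochore and nuclear matrix protein, varied least in this group, at 403, 417, 396 and 404 CPM. The centromeric histone Cenpa had log2 ratios between -0.09 and 0.37 over the 4 pairs.

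The spindle checkpoint genes summed to a log2 ratio of -0.52 (-0.58 to -0.47) for the medium on PUCL@CNT1 and -0.10 (-0.15 to -0.05) on PUCL. Mad2l1, whose protein blocks Cdc20, stood at 31.1, 51.7, 38.2 and 18.5 CPM. The kinase Bub1 stood at 45.9, 84.2, 82.3 and 45.0 CPM, and so was similar in the PUCL maintenance and PUCL@CNT1 differentiation libraries and higher in the other 2.

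Bub1b, the BubR1 pseudokinase of the checkpoint, stood at 126, 98.3, 125 and 68.6 CPM, lower on PUCL@CNT1 in both media. Bub3, which carries both Bub proteins to kinetochores, stood at 702, 674, 611 and 466 CPM. It was lower in both differentiation libraries. Ttk, the Mps1 kinase that starts checkpoint signalling and also named after its values were seen, went the other way between platforms at 74.3, 103, 57.7 and 107 CPM.

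The chromosomal passenger complex corrects faulty attachments and later acts in cytokinesis, and its 3 genes had unlike patterns. Incenp, the scaffold, stood at 42.9, 87.1, 79.3 and 24.7 CPM. The medium log2 ratio was 0.89 (0.67 to 1.10) on PUCL and -1.82 (-2.08 to -1.57) on PUCL@CNT1. Aurkb, the kinase of the complex, stood at 51.6, 64.3, 39.9 and 17.6 CPM, with a medium log2 ratio of -0.37 (-0.61 to -0.13) on PUCL and -1.87 (-2.18 to -1.57) on PUCL@CNT1. Both genes were lowest in the PUCL@CNT1 differentiation library. Birc5 (survivin), the centromere-targeting subunit, stood at 950, 771, 1018 and 877 CPM, lower on PUCL@CNT1 in both media and slightly higher after the switch.

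The sum of the 3 spindle assembly genes was lower on PUCL@CNT1, by a log2 ratio of -0.62 (-0.70 to -0.53) in maintenance medium and -0.89 (-0.99 to -0.80) in differentiation medium. Of the 3, Nusap1 and Tpx2 were lower in both media and Hmmr in maintenance medium only. Nusap1, a microtubule-bundling protein, stood at 323, 192, 253 and 126 CPM. Tpx2, which activates Aurora A on the spindle, stood at 129, 112, 159 and 76.4 CPM. In both genes each PUCL@CNT1 library lay below each PUCL library. Hmmr, a spindle and hyaluronan-binding protein, stood at 36.4, 14.1, 2.32 and 20.0 CPM, with 15 counts in the PUCL differentiation library against 240 in the PUCL maintenance library. It was the member with the largest spread between libraries apart from Cdc25b.

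The 3 anaphase genes were lower on PUCL@CNT1 in sum, by a log2 ratio of -0.32 (-0.36 to -0.28) in maintenance and -0.36 (-0.40 to -0.33) in differentiation medium. Cdc20, the APC/C activator, stood at 615, 425, 637 and 419 CPM, lower in both PUCL@CNT1 libraries and close between media on each platform. Ube2c, the E2 enzyme that works with the APC/C, stood at 689, 665, 619 and 574 CPM. Pttg1 (securin), named here after its values were seen, stood at 459, 318, 683 and 514 CPM. It was higher after the switch on both platforms and lower on PUCL@CNT1 in both media.

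For cytokinesis, Prc1, which bundles the midzone microtubules, stood at 429, 337, 560 and 358 CPM. Both PUCL@CNT1 libraries were below both PUCL libraries. Ect2, the exchange factor that switches on RhoA at the cleavage furrow, stood at 93.6, 60.5, 57.2 and 37.3 CPM, lower after the switch and lower on PUCL@CNT1. Racgap1, the centralspindlin subunit that recruits Ect2, had only 21, 75, 57 and 44 counts, and its ratios rest on those few reads.

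**Figure D3:**
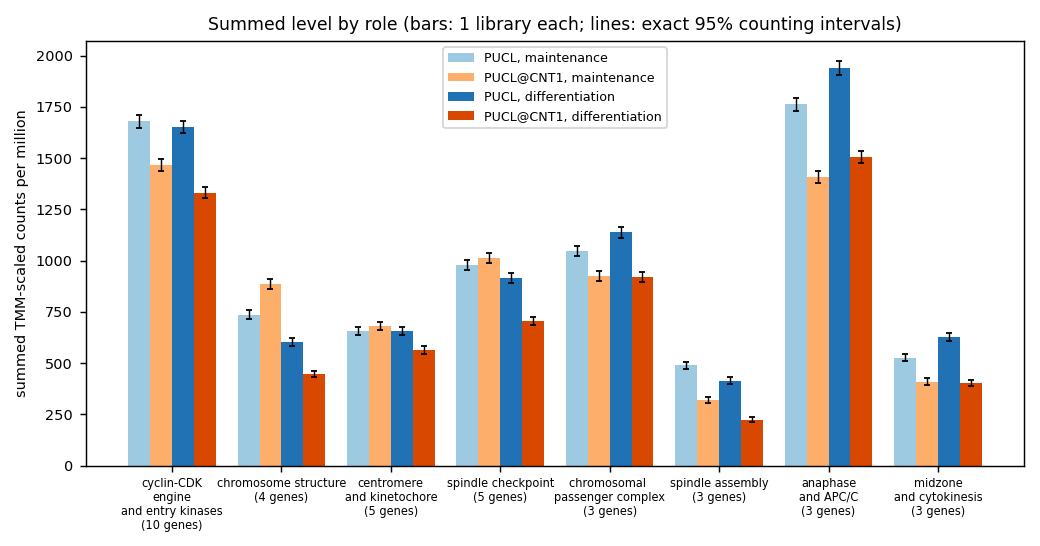
Summed TMM-scaled CPM of the members in each of the 8 role groups, 1 bar per library, with lines for exact 95% intervals that cover counting error only. Chromosome structure genes sum to 446 CPM in the PUCL@CNT1 differentiation library, against 602 to 886 CPM in the other 3, and the sum of the spindle assembly genes is lower on PUCL@CNT1 in both media.

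The members were also sorted by the order of their CPM in the 4 libraries, first by medium and then by platform, with no minimum gap. Both differentiation libraries lay below both maintenance libraries for 13 members (36.1%, beside 19.3% of all genes): Top2a, Ccnb1, Aurka, Aurkb, Bub3, Ndc80, Nuf2, Ube2c, Ect2, Smc2, Smc4, Cks1b and Cks2. The reverse held for 4 (11.1%, beside 19.4%): Ccna2, Cdc25b, Cenpa and Pttg1. Both PUCL@CNT1 libraries lay below both PUCL libraries for 9 members (25%, beside 14.9%): Ccnb2, Cdk1, Plk1, Bub1b, Cdc20, Birc5, Tpx2, Prc1 and Nusap1. Both lay above for Ttk and Cenpf alone (5.56%, beside 15.2%).

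Those sets were then read with a quasi-likelihood F test in edgeR, with platform and medium as additive terms over the 4 libraries and adjusted p-values over all genes tested. It treats the platforms as repeats of the medium change, and a change on 1 platform only adds to the spread. Past an adjusted p of 0.05 there were 0 of 36 members for the medium, beside 2.81% of all genes, and 0 for the platform, beside 0.456%. The 2 closest for the medium were Pttg1, with a fitted log2 difference of 0.63 (SE 0.196, edgeR adjusted p = 0.0564), and Smc2, with -0.84 (SE 0.268, edgeR adjusted p = 0.0716). The 2 closest for the platform were Plk1, with -0.79 (SE 0.211, edgeR adjusted p = 0.0589), and Nusap1, with -0.87 (SE 0.243, edgeR adjusted p = 0.0829).

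At an unadjusted edgeR p under 0.05 there were 6 members for the medium (16.7%, beside 12.1% of all genes) and 8 for the platform (22.2%, beside 6.95%). For the medium, Pttg1 was higher (2.78%, beside 6.22% of all genes) and Top2a, Aurkb, Nuf2, Smc2 and Smc4 were lower (13.9%, beside 5.89%). For the platform, Ttk was higher on PUCL@CNT1 (beside 3.38% of all genes) and Ccnb2, Plk1, Cdc20, Tpx2, Prc1, Nusap1 and Pttg1 were lower, so that 19.4% of members were lower beside 3.58% of all genes. These backgrounds hold more low-count genes: 33 of the 36 members had a mean of 100 or more counts, against 6204 of 10516 genes. The shares among such genes are not given for the unadjusted p, so the backgrounds are not matched for depth. For the medium, DESeq2 put 0 members past the adjusted threshold, beside 1.87% of the 9088 genes it gave an adjusted p, and limma-voom 1 (Pttg1), beside 2.8% of all genes. For the platform, DESeq2 gave an adjusted p to 730 genes, 11 members among them, and put 1 (Plk1) past, beside 4.93% of those genes, and limma-voom put 2 past (Plk1 and Nusap1), beside 0.827%. A fit to 3 libraries has no residual degree of freedom unless the other term is dropped too. With the medium term dropped, 25 of 36 members had a fitted platform difference below 0 over all 4 libraries, and 15 of 35 without the PUCL@CNT1 differentiation library. Of 36 members it was 22 without PUCL maintenance, 29 without PUCL@CNT1 maintenance and 24 without PUCL differentiation. The shares of all genes below 0 in these fits were not counted.

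**Figure D4:**
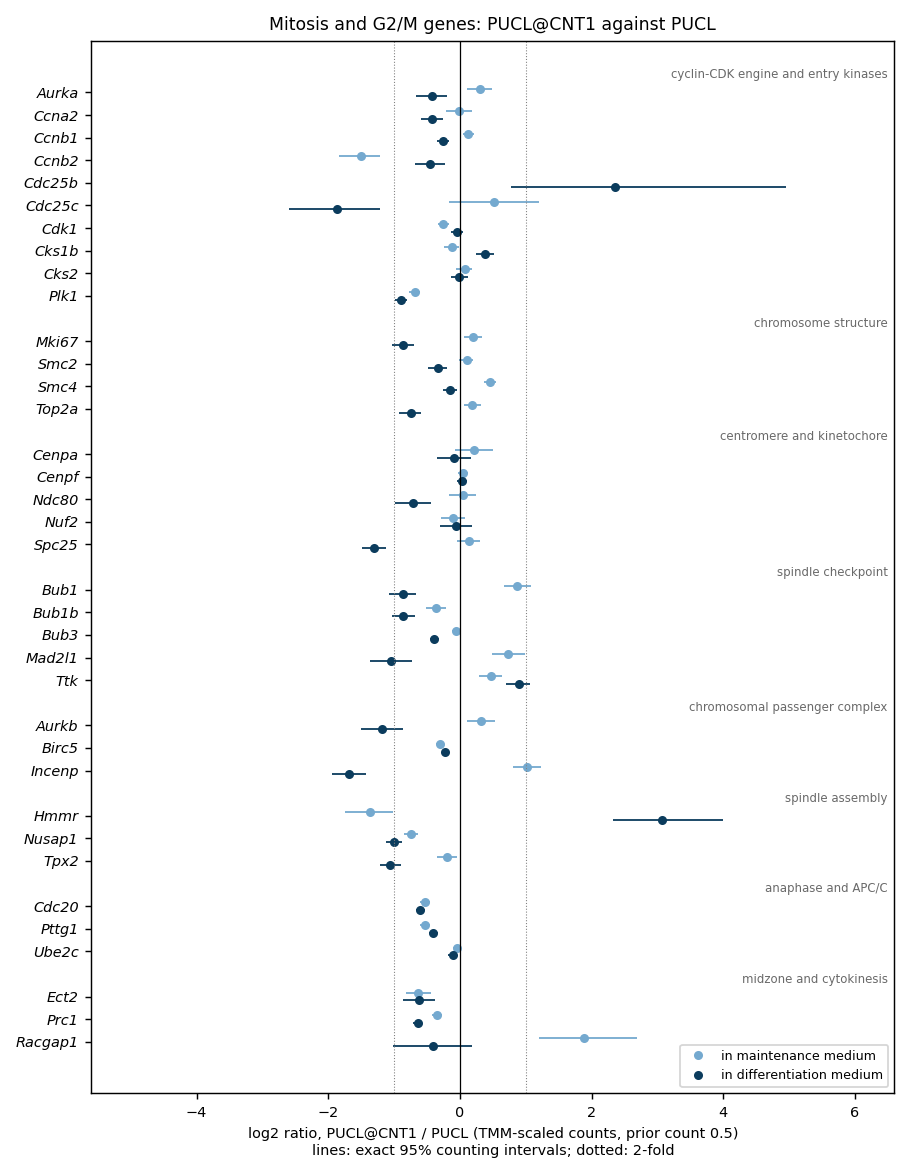
Log2 ratio of PUCL@CNT1 to PUCL for each member in maintenance and in differentiation medium; points are the ratio of 2 libraries and bars its exact 95% interval (counting error only). In differentiation medium 31 of 36 members lie below 0, against 17 in maintenance medium; no point is drawn for Cdc25b in maintenance medium, where both counts were 0.

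The medium ratio itself differed between platforms for some members. The log2 ratio on PUCL@CNT1 minus that on PUCL had a median of -0.32 over the members, beside 0.03 over all genes. By the same sizes, 8 members (22.2%, beside 14.1% of all genes) were lower: Mki67, Aurkb, Bub1, Mad2l1, Cdc25c, Spc25, Incenp and Racgap1. Ccnb2 and Hmmr were higher (5.56%, beside 15.4%). Among the 33 members with a mean of 100 or more counts, 6 (18.2%) were lower and 2 (6.06%) higher. The shares of all such genes are not given, so these backgrounds are not matched for depth. The largest differences were 4.43 for Hmmr (3.59 to 5.27) and -2.70 for Incenp (-3.03 to -2.38). With 4 libraries no residual spread was left for a test of this difference.

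Genes that control or neighbour these members were read from 9 lists. Among 11 activators and DREAM subunits none passed the edgeR threshold, and the median platform log2 ratio was -0.29 in maintenance and -0.43 in differentiation medium. Mybl2 (B-Myb), an activator of G2/M promoters, stood at 57.9, 47.2, 68.5 and 31.0 CPM, lowest in the PUCL@CNT1 differentiation library. Foxm1 had 49, 60, 101 and 65 counts and was highest on PUCL after the switch. Rbl1, the p107 pocket protein of DREAM, had 88, 0, 96 and 2 counts, and was past the size rule downward on PUCL@CNT1 in both media.

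Other mitotic genes had medians close to those of the members in the PUCL@CNT1 differentiation library. For 10 mitotic kinesins the median log2 ratio was -0.48 for the medium on PUCL@CNT1 and -0.58 for the platform in differentiation medium, and all 10 platform ratios were below 0 there. For 32 other kinetochore and spindle genes the medians were -0.46 and -0.37. None of either list passed the edgeR threshold. Past the size rule in both pairs of a contrast were Cenpl, higher after the switch (55, 90, 241 and 252 counts), Mis12 (0, 30, 0 and 113 counts) and Ska2 (89, 247, 102 and 211 counts), higher on PUCL@CNT1, and Cenpi, lower on it (154, 65, 220 and 94 counts).

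The 16 APC/C subunits had a median of -0.05 for the medium on PUCL@CNT1, and 1 passed the edgeR threshold: Anapc13 rose after the switch, from 150 and 179 to 253 and 344 CPM (fitted log2 difference 0.85, SE 0.24, edgeR adjusted p = 0.0298). It was past the threshold in 6 of 12 alternative fits, with edgeR, DESeq2 or limma-voom adjusted p from 0.00999 to 0.77. The call was lost when the platform term was dropped with all 4 libraries kept (log2 difference 0.86, edgeR adjusted p = 0.112), and in that form leaving out 1 library gave 0.62 to 1.06. Among 11 cohesin and separase genes none passed, and the acetyltransferase gene Esco1 (104, 126, 47 and 65 counts) and the cohesin loader Mau2 (263, 103, 205 and 97 counts) were past the size rule in both pairs, lower with the medium and lower on PUCL@CNT1 respectively. Of 17 entry checkpoint kinases and phosphatases, Mastl (Greatwall), with 29, 2, 53 and 0 counts, was past it on PUCL@CNT1.

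The genes of the earlier cell cycle went in different directions. The 39 S phase genes had medians of -0.54 for the medium on PUCL@CNT1 and -0.61 for the platform in differentiation medium, like the members, against 0.16 and -0.05 in the other 2 pairs. Pola1, the catalytic subunit of the polymerase that primes replication, was lower on PUCL@CNT1 in the fit, at 374, 256, 325 and 135 CPM (log2 difference -0.91, SE 0.235, edgeR adjusted p = 0.0488), and stayed past the threshold in 4 of 12 alternative fits, with adjusted p from 0.00989 to 1. The call was lost when the medium term was dropped with all 4 libraries kept (log2 difference -0.84, edgeR adjusted p = 1), and in that form leaving out 1 library gave -1.37 to -0.44. Mcm5, a subunit of the replicative helicase, had 358, 110, 391 and 80 counts. Of 15 G1/S genes none passed. Ccnd1 (cyclin D1) was highest in the PUCL@CNT1 differentiation library at 2845, 2636, 1898 and 3712 CPM, and Ccnd2 stood at 121, 92.0, 119 and 122 CPM. Ccne2 was past the size rule downward on PUCL@CNT1 in both media (605, 279, 715 and 327 counts), and Rb1 (124, 256, 76 and 256 counts) and E2f7 (0, 34, 0 and 15 counts) upward.

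Of the 9 lists, the CDK inhibitors had the highest summed ratios in the pairs that hold the PUCL@CNT1 differentiation library, at 529, 639, 570 and 1118 CPM. Cdkn1a (p21), which inhibits cyclin-CDK complexes, stood at 216, 348, 280 and 702 CPM of it. It passed the edgeR threshold upward for the medium (log2 difference 0.70, SE 0.211, edgeR adjusted p = 0.0498) and for PUCL@CNT1 (1.01, SE 0.212, edgeR adjusted p = 0.0056). In alternative fits the medium call held in 3 of 12, with adjusted p from 0.00151 to 0.993, and the platform call in 8 of 12, with adjusted p from 6.21e-05 to 1. Both calls were lost when the other term was dropped with all 4 libraries kept, with a log2 difference of 0.80 for the medium (edgeR adjusted p = 0.163) and 1.08 for the platform (edgeR adjusted p = 0.59). In that form, further leaving out the PUCL@CNT1 differentiation library gave -0.02 and 0.50. Cdkn1b (p27) stood at 61.6, 22.4, 59.1 and 59.6 CPM, lowest in the PUCL@CNT1 maintenance library. Cdkn2c (p18) was past the size rule downward on PUCL@CNT1 in both media, with 296, 130, 343 and 121 counts. The part of these genes in the levels of the members was not tested.

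**Figure D5:**
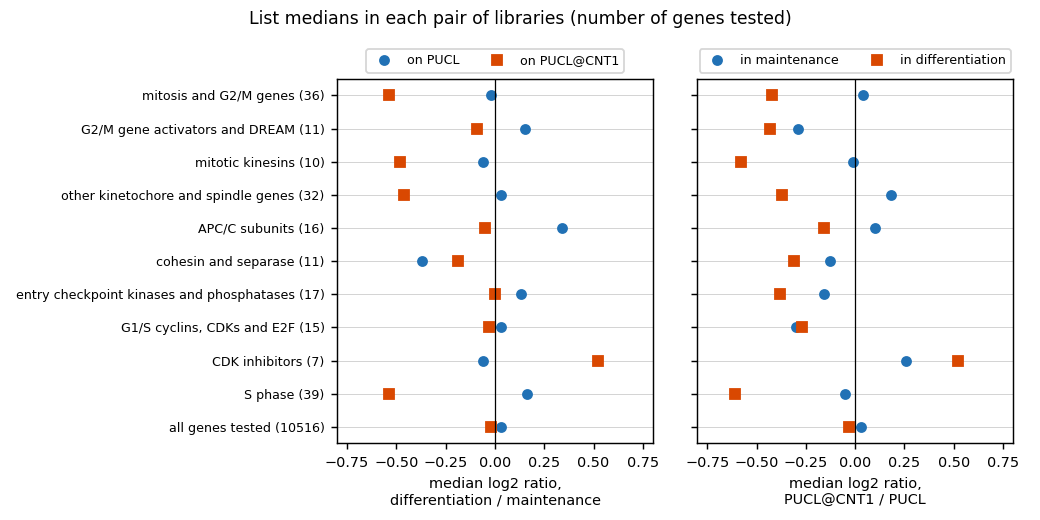
Median log2 ratio of each list in each pair of libraries, left for differentiation to maintenance medium and right for PUCL@CNT1 to PUCL, with the number of genes tested in brackets. The members, mitotic kinesins, other kinetochore and spindle genes and S phase genes lie between -0.37 and -0.61 in the pairs that hold the PUCL@CNT1 differentiation library, and CDK inhibitors lie at 0.52.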

How the data were processed

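Each of the 4 libraries was made from 500 ng of total RNA with a Lexogen QuantSeq kit, per the labels' protocols. The authors deposited unnormalized whole-number counts for each gene symbol, and the submitters' processing notes name Bowtie2, bedtools and the rn6 build. The annotation, strand setting and versions were not given in the sources used here, so antisense and overlapping genes cannot be told apart. From these, genes with 10 or more counts in 1 library were kept (10516 of 16881 symbols), scaled by TMM (factors 1.01, 1.03, 0.982 and 0.97), and tested in edgeR 4.0.16 (R 4.3.3) with 1 residual and 87.2 prior degrees of freedom and Benjamini-Hochberg adjustment over all genes. The p-values rest mostly on the spread of other genes. Ratios of library pairs used a prior count of 0.5. Scripts were tested on simulated data. Alternatives were other scalings, count filters, sizes, DESeq2 1.42.0, limma-voom (limma 3.58.1) and leaving out each library (with the other term dropped). Named were members past the size rule, the interaction sizes or the edgeR threshold, and the 2 highest per role. For other lists, genes past edgeR or past the size rule in both pairs were named, at most 3 a list for each contrast, with 6 fixed genes. Members and lists were chosen with earlier results of these data known.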

Additional observations from a re-analysis of the deposited data

Results flagged for a closer look

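For 7 members the medium ratio went in opposite directions on the 2 platforms, each with an interval beyond 0, and by a difference past the size rule. Tpx2 also went in opposite directions, but its difference of -0.85 was under that size. The share of all genes that met this joint rule was not counted. By the size of the difference alone, 14.1% of all genes were lower and 15.4% higher. The difference between platforms was not tested, since the 4 libraries left no residual spread for it. The log2 ratio of differentiation to maintenance medium on PUCL@CNT1 minus that on PUCL was -1.74 for Bub1, -1.78 for Mad2l1, -1.44 for Spc25 and -2.70 for Incenp. It was -2.37 for Cdc25c and -2.30 for Racgap1, both of which had fewer than 100 counts in every library. These 6 were higher after the switch on PUCL and lower after it on PUCL@CNT1. Hmmr went the other way, with a difference of 4.43 that rests on 15 counts in the PUCL differentiation library.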

How the results depend on the processing

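Among the members no called value changed sign; of the other genes, the medium difference of Cdkn1a was -0.02 without the PUCL@CNT1 differentiation library and the platform term. For the medium, the 0 members called by edgeR became 1 with total counts (Smc2), 1 with total counts without ribosomal RNA (Smc2), 2 with genes of mean 100 or more counts (Pttg1 and Smc2) and 1 with limma-voom (Pttg1). For the platform, 0 became 2 without ribosomal RNA, 2 with that filter and 2 with limma-voom (Plk1 and Nusap1 each time), and 1 with DESeq2 (Plk1). Leaving out 1 library, with the other term dropped as 3 libraries require, gave 0 to 0 for both terms, as did dropping that term alone. In the order given, all genes called were 2.48%, 3.33%, 6.21% and 2.8% for the medium and 0.742%, 1.34%, 0.827% and 4.93% (of 730 genes with an adjusted p) for the platform. With 1.5-fold and a nearer bound beyond 1, the medium on PUCL gave 6 of 36 members higher and 5 lower (24.8% and 24.2% of all genes), the medium on PUCL@CNT1 16 lower (24.2%), the platform in maintenance medium 4 higher and 5 lower (19.8% and 22.5%), the platform in differentiation medium 16 lower (24.7%), and the difference of medium ratios 13 lower (23.4%). With the filter of 100 counts, 0, 1, 1 and 1 members were higher in these 4 pairs (8.7%, 9.16%, 5.32% and 7.43% of such genes), and on PUCL@CNT1 1 was higher with the medium under either total-count scaling (15.3% and 15%).

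The summed log2 ratio for the medium on PUCL was -0.03 with total counts and 0.07 without the 6 members picked by hand as also used outside mitosis. For the medium on PUCL@CNT1 it was -0.32 with total counts, -0.32 without ribosomal RNA, -0.28 without Birc5 and -0.12 without the 6. For the platform in maintenance medium it was -0.12, -0.13 without Birc5 and -0.21 without the 6, and in differentiation medium -0.48 without ribosomal RNA and -0.41 without Birc5. Without ribosomal RNA the median of all genes shifted by up to -0.10. Chosen after seeing the data, the count of members lowest in the PUCL@CNT1 differentiation library was 21 to 26 over 4 alternatives, and 25 to 30 members, or 23 of 33 with the filter, were below 0 for the medium on PUCL@CNT1. The cause of these differences was not tested. Counts below 100 limit Cdc25b, Cdc25c and Racgap1. No paired analysis was possible because each group had 1 library.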
